A study of Mus musculus with 6 samples.

Results

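The genes described here are 7 genes of the integrated stress response, Gdf15, Atf3, Atf4, Ddit3, Trib3, Asns and Chac1, of 34187 gene features measured. They were listed by name after Gdf15 had been seen to be lower in the macrophages of treated tumors, so that observation chose them. For this reason every treatment difference of the 7 genes in macrophages is a description with no test. Treatment was tested in dendritic and tumor cells, and for other genes of the pathway in all 3 classes. The observation came from macrophages, but dendritic and tumor cells share their mice and libraries. The genes were also listed with earlier results of these data known, so these tests are not independent of the choice. The question was how these genes varied between cell types and between treatments.

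Single-cell RNA sequencing from the 5′ end had been performed on cells enriched for CD45 with beads from subcutaneous pancreatic ductal adenocarcinomas, grown in C57BL/6 mice of both sexes, per the study's methods, from the line 6694c2vTRP1. Mice received intraperitoneal PBS, mono-IL10 at 26 µg per mouse or IL10/2-Trikine at 30.6 µg per mouse, as 2 doses every other day from day 8, and tumors were collected on day 14. Mono-IL10 is a monomeric IL-10, and IL10/2-Trikine joins the same cytokine to an arm that engages the IL-2 receptor. Each treatment group of 5 mice was hashtagged, pooled and run as 1 library, so treatment and library cannot be told apart, while the 5 hashtags of a library served as 5 mice. P-values therefore measure the spread between the mice of 3 libraries. The 3 libraries held 44412 (PBS), 30528 (mono-IL10) and 55504 (IL10/2-Trikine) barcodes with 515236552, 458860129 and 364814102 unique molecular identifiers (UMIs, the counted molecules), and pairs of libraries shared 408 to 700 barcode sequences.

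The integrated stress response begins with kinases that phosphorylate eIF2α when amino acids run short, proteins misfold in the endoplasmic reticulum, haem is lacking or viral RNA is present. General translation then falls while translation of ATF4 rises, and ATF4, with partners such as C/EBP proteins, drives genes for amino acid supply and, under lasting stress, for cell death. GDF15, a secreted TGF-β family protein that acts on a receptor in the hindbrain, is a widely used marker of this response and can also be driven by p53 and by other stress signals. ATF4 is controlled largely at translation, so its mRNA need not follow its activity.

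The promoters show which of the genes carry, next to their start, the letters that these factors are known to recognise. The 250 bases upstream of the start are printed 5′ to 3′ on the strand of the gene for Gdf15, whose level the report turns on, and for the genes with a match. They come from RefSeq on the build GRCm38.p6, while the reads had been aligned to GRCm39, and the coordinates are those of GRCm38.p6. Capitals mark matches to the C/EBP-ATF response element TGATGNAA, the cAMP response element core TGACGTNA and the AP-1 site TGANTCA, searched on both strands.
Gdf15 (chr8:70632457-70632706, minus strand): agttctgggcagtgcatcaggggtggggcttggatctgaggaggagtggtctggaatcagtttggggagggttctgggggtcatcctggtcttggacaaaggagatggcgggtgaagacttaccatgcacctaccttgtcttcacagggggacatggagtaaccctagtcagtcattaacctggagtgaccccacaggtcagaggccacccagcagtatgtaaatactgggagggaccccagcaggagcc
Atf3 (chr1:191183334-191183583, minus strand): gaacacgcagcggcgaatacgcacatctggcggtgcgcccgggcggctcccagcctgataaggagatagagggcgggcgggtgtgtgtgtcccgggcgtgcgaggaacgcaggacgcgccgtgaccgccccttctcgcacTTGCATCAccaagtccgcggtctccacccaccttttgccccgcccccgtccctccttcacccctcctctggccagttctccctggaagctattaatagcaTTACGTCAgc
Ddit3 (chr10:127290543-127290792, plus strand): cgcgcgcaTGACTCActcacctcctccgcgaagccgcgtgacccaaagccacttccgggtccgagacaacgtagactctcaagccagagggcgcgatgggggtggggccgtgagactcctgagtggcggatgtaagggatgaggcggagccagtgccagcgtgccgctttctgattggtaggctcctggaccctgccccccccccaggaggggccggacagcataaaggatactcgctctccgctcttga
Asns (chr6:7693210-7693459, minus strand): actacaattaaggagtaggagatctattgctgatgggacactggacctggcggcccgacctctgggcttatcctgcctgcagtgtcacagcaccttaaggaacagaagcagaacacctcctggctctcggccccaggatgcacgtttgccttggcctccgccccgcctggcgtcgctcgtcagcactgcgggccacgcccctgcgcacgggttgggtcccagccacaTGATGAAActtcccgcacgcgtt
Chac1 (chr2:119350992-119351241, plus strand): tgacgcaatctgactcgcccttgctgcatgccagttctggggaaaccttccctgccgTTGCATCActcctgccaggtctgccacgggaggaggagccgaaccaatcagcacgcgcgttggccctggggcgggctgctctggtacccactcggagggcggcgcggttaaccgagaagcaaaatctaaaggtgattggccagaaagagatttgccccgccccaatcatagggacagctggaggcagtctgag
In Atf3, the C/EBP-ATF element began 110 bases before the start and the cAMP response element 10 bases before it, both read on the opposite strand. The C/EBP-ATF match began 23 bases before the start in Asns and 193 bases before it, on the opposite strand, in Chac1. An AP-1 site, whose letters match the pattern on both strands, began 242 bases before the start in Ddit3. Neither RefSeq entry for Gdf15 and no sequence for Atf4 held a match, and the C/EBP-ATF match in Trib3 lay downstream of the start and is not printed. Of 32851 mouse promoters, 3.45% held the C/EBP-ATF letters in the same 250 bases, 2.52% the cAMP response element and 6.75% the AP-1 site. These matches describe letters in this window only.

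Cells were grouped by clustering and named from marker genes into macrophage-like, dendritic-like and tumor epithelial-like cells. In these classes, Csf1r, the receptor of the macrophage growth factor, averaged 596, 179 and 12.7 counts per 1e6 UMIs (CPM) over the 15 mice. Ccr7, of mature dendritic cells, averaged 11.9, 963 and 3.2 CPM, and Krt8, an epithelial keratin, 22.9, 86.6 and 2090 CPM. The epithelial cadherin Cdh1 was also highest in the tumor class, at 25.8, 112 and 284 CPM in the same order. Epcam, an epithelial adhesion protein, at 0.72, 22.5 and 16.8 CPM, and Cldn7, a tight junction protein, at 0.0259, 0.545 and 0.147 CPM, were not and went against its name. The tumor class is present in spite of the CD45 beads. The macrophage-like, dendritic-like and tumor epithelial-like classes held 19762, 1599 and 43557 cells. Cells without the hashtag of 1 mouse were left out of the levels per mouse, most of them from the tumor class. Cells that carried the hashtag of 1 mouse numbered 7795, 5913 and 5008 macrophage-like cells (PBS, mono-IL10, IL10/2-Trikine), 596, 354 and 224 dendritic-like cells, and 6470, 5042 and 11683 tumor epithelial-like cells. Their depth differed with treatment in the same order in each class: the median was 4993, 6196 and 2799 UMIs per macrophage-like cell, 7626, 10070 and 3691 per dendritic-like cell, and 24884, 34593 and 9999 per tumor epithelial-like cell. Levels below are CPM of the UMIs summed over the cells of 1 mouse and class, with 5 mice per group. In such sums, fewer cells that express a gene and less RNA per cell cannot be told apart.

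Gdf15 was highest in tumor epithelial-like cells, intermediate in macrophage-like cells and low in dendritic-like cells. In the PBS group it averaged 278 ± 25.4 CPM (SD, n = 5 mice), 157 ± 43.1 CPM and 31.8 ± 30.6 CPM in these classes. Over all cells of each class, with or without a mouse, mast-like cells held 115 CPM from 156 cells, endothelial-like cells 27.3, neutrophil-like cells 17.6, fibroblast-like cells 5.78, and T and NK-like cells 5.4 and 5.37. Across these classes Atf4 stayed between 193 and 297 CPM. Atf3 reached 1820 CPM in tumor epithelial-like and 1080 CPM in endothelial-like cells and 67.7 CPM in NK-like cells. Ddit3, Asns, Chac1 and Trib3 were highest elsewhere. Ddit3 was at 75.3 CPM in neutrophil-like, 41.7 CPM in tumor epithelial-like and 24.0 CPM in macrophage-like cells. Asns, the enzyme that makes asparagine, was at 24.1 CPM in endothelial-like and 21.2 CPM in tumor epithelial-like cells and at 1.09 CPM in macrophage-like cells. Chac1, which degrades glutathione, stood at 21.1 CPM in neutrophil-like cells. Trib3, a pseudokinase that restrains ATF4, was at 10.2 CPM in mast-like and 4.22 CPM in tumor epithelial-like cells. These classes came from clustering the same cells, so their differences were not tested.

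**Figure D1:**
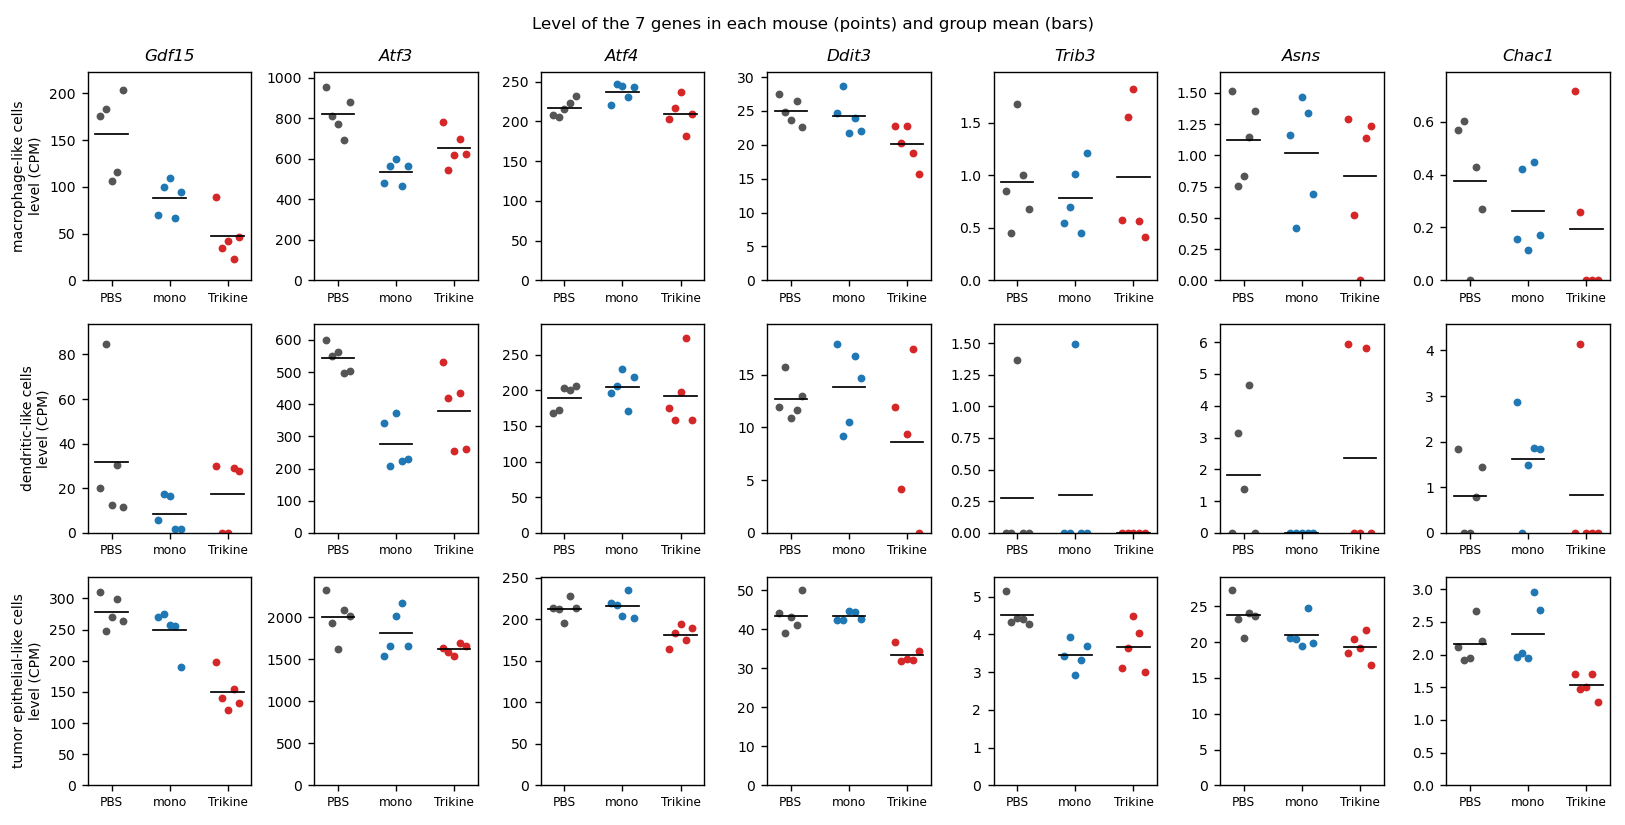
Level of the 7 genes (CPM of UMIs summed per mouse, linear axes from 0 with their own scale in each panel), by gene across and by class down, for the groups PBS, mono-IL10 (mono) and IL10/2-Trikine (Trikine); each point is 1 mouse and each bar the mean of 5 mice. Gdf15 in macrophage-like cells averages 157, 88.2 and 47.1 CPM in the 3 groups, while Atf4 averages 217, 237 and 210 CPM.

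In macrophage-like cells, Gdf15 was at 176, 183, 107, 116 and 203.5 CPM in the PBS mice, at 69.9, 99.6, 109.9, 67.0 and 94.4 CPM in the mono-IL10 mice, and at 88.9, 35.1, 41.9, 23.3 and 46.2 CPM in the IL10/2-Trikine mice. Every IL10/2-Trikine mouse lay below every PBS mouse, the mono-IL10 and PBS mice overlapped by 1 mouse on each side, and IL10/2-Trikine mouse 1 lay among the mono-IL10 mice. The log2 fold change was -1.63 for IL10/2-Trikine against PBS, -0.76 for mono-IL10 against PBS and -0.87 for IL10/2-Trikine against mono-IL10. These are the values that chose the genes, and the 3 comparisons share their groups. IL10/2-Trikine mouse 1 gave 2071 of the 5008 cells of its group, and without it the IL10/2-Trikine change was -2.12.

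Atf3, a repressor and activator of the same family that is induced by ATF4 and by many acute stimuli, was lower in both treated groups. It was at 956, 812, 769.9, 691.5 and 881.5 CPM with PBS, at 482, 562, 597, 466 and 565 CPM with mono-IL10, and at 779.9, 546, 621, 696.5 and 625 CPM with IL10/2-Trikine. Every mono-IL10 mouse lay below every PBS mouse, and the IL10/2-Trikine mice overlapped both groups. Its log2 fold changes were -0.54 (mono-IL10 against PBS), -0.34 (IL10/2-Trikine against PBS) and 0.20 (IL10/2-Trikine against mono-IL10), and the last was -0.014 in cells of 3000 to 8000 UMIs, whose median depth was 5395 UMIs with mono-IL10 and 3906.5 with IL10/2-Trikine.

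Atf4 itself ranged from 206 to 232 CPM with PBS, from 220.1 to 247 CPM with mono-IL10 and from 181.5 to 237 CPM with IL10/2-Trikine, and the groups overlapped. Its log2 fold change was 0.21 for mono-IL10 and -0.07 for IL10/2-Trikine against PBS. Ddit3, which encodes the proapoptotic factor CHOP, ranged from 22.7 to 27.5 CPM, from 21.7 to 28.7 CPM and from 15.7 to 22.8 CPM in the 3 groups, with a log2 fold change of -0.32 for IL10/2-Trikine against PBS. For mono-IL10 it was 0.03, a direction that turned with library totals in place of TMM scaling (-0.050). Trib3, Asns and Chac1 held 6 to 50 UMIs in a whole group, at most 1.82 CPM in any mouse, and did not pass the filter on low counts. Thus of the 7 genes, 4 passed that filter in macrophage-like cells, and a group lay wholly below PBS for Gdf15 with IL10/2-Trikine and for Atf3 with mono-IL10. Among all 12105 genes tested there, every IL10/2-Trikine mouse lay below every PBS mouse for 5.52%, and every mono-IL10 mouse below every PBS mouse for 12.8%. Nothing is read from these counts, since the choice of genes used this contrast.

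Gdf15 differed widely among the 12 clusters of macrophage-like cells, named here by their leading genes. With PBS it stood at 494 CPM in the Ccl8/Cd163/Ccl7 cluster, 460 CPM in the Cd163/Ccl8/Cbr2 cluster, 338 CPM in the Cd83/Ccl4 cluster and 289 CPM in the Cx3cr1/Ccl12 cluster, and at 18.9 and 9.95 CPM in the Ccl17 and Ccl24/Ccr2 clusters. With IL10/2-Trikine the same 6 clusters held 113, 162, 174, 92.6, 3.36 and 5.86 CPM. These are levels over the cells of the 5 mice together, which were lower with IL10/2-Trikine than with PBS in 11 of 12 clusters and lower with mono-IL10 than with PBS in 12 of 12. By the mean over mice with at least 20 cells of the cluster, 1 to 5 mice per group, the counts were 12 and 11 of 12, so the direction in 2 clusters depended on the summary. The Gpnmb/Cd36 cluster was at 94.2 CPM with PBS and 94.8 CPM with IL10/2-Trikine over all cells and at 97.8 and 88.4 CPM by the mean over 5 mice each. The Pf4/Nrg1 cluster was at 71.8 CPM with PBS and 67.8 CPM with mono-IL10 over all cells and at 62.5 and 69.5 CPM by the mean over 4 and 5 mice. Different clusters held much of the class in the 3 groups: the Cd83/Ccl4 cluster made up 18.6%, 3.52% and 1.02% of it (PBS, mono-IL10, IL10/2-Trikine), the Pf4/Nrg1 cluster 1.61%, 25.8% and 6.22%, and the Pf4/F13a1/Arg1 cluster 8.44%, 8.95% and 28.8%. The 9 clusters with at least 10 cells in every mouse, which held at least 71.3% of its cells, were given the same weights in every mouse. The Cd83/Ccl4 and Cd163/Ccl8/Cbr2 clusters were not among them, at 0.246% and 0.518% of the class in their lowest mouse. Their shift in share was thus left out, not evened out. With these weights Gdf15 averaged 128 ± 44.9, 68.3 ± 9.33 and 36.9 ± 15.1 CPM (SD, n = 5 each). The IL10/2-Trikine mice, at 19.0 to 60.4 CPM, then still lay below the PBS mice, at 80.9 to 186.5 CPM. The mono-IL10 mice, at 56.6 to 77.8 CPM, also lay below the PBS mice there, although these groups overlapped without the weights.

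**Figure D2:**
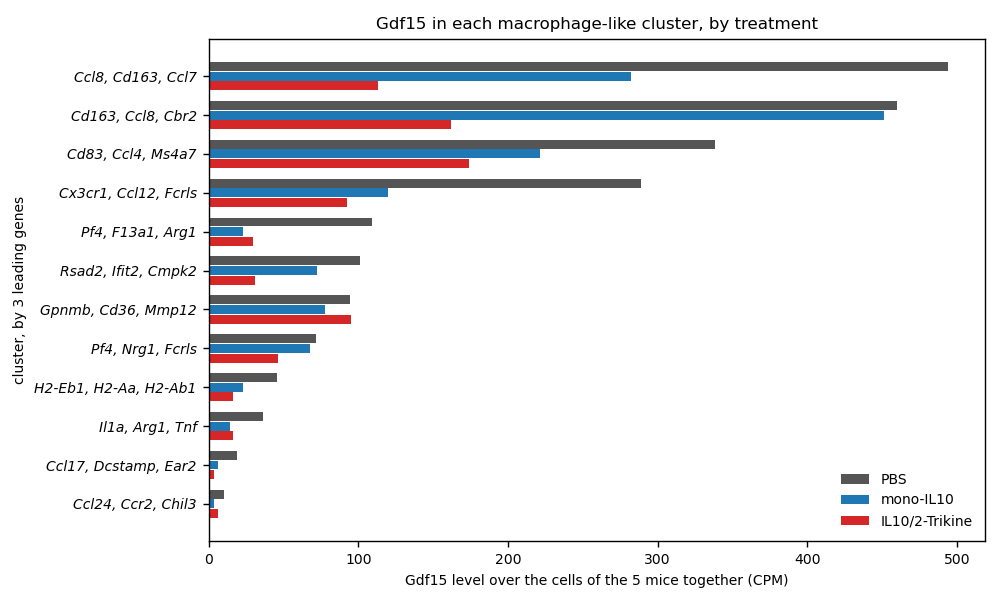
Gdf15 in the 12 clusters of macrophage-like cells, named by their leading genes; each horizontal bar is the level in CPM over the cells of the 5 mice together in 1 treatment group, with no error. The Ccl8/Cd163/Ccl7 cluster falls from 494 to 113 CPM and the Gpnmb/Cd36 cluster lies at 94.2 and 94.8 CPM, PBS first; the means over mice there were 97.8 and 88.4 CPM.

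The share of cells with at least 1 Gdf15 UMI was compared after each cell had been thinned to 3000 UMIs. It was 17.2%, 10.4% and 10.2% of macrophage-like cells with PBS, mono-IL10 and IL10/2-Trikine, 5.69%, 1.18% and 3.47% of dendritic-like cells and 32.9%, 28.7% and 23.2% of tumor epithelial-like cells. In the T and NK cells annotated by the authors, taken here as a reference of low expression, it was 2.31%, 0.498% and 0.377%, and every share above exceeded the share of T and NK cells in its own library. For dendritic-like cells this rests on few cells: 32, 4 and 5 held Gdf15 in the 3 groups, against 5, 3 and 1 T and NK cells. Whether these T and NK cells express the gene was not tested. Before thinning, the shares were 21.6%, 14.4% and 9.05% of macrophage-like cells and 2.14%, 0.949% and 0.552% of T and NK cells, whose median depth was 2772, 3959 and 2635 UMIs. Thinning kept 6308, 5240 and 2157 macrophage-like cells, so it left out most cells of the shallow IL10/2-Trikine library. The shares above are over the cells of all mice of a group together. Among mice, the thinned macrophage-like share ran from 12.4 to 19.8% with PBS, from 8.18 to 11.7% with mono-IL10 and from 3.75 to 14.6% with IL10/2-Trikine. The median mouse was at 18.3%, 10.5% and 6.88% in the same order.

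Transcripts of other cells moved with treatment in this class. The summed tumor epithelial markers lay at 55.4 to 74.2 CPM with PBS, 38.0 to 66.2 CPM with mono-IL10 and 83.2 to 118 CPM with IL10/2-Trikine, against means of 5251, 5277 and 4153 CPM in tumor epithelial-like cells, and Cldn7 was at 0 in the IL10/2-Trikine group. Mature dendritic markers averaged 41.3, 12.8 and 13.1 CPM in the same order, T cell markers 34.8, 27.5 and 63.7 CPM, NK cell markers 4.81, 1.98 and 12.2 CPM, and neutrophil markers 369.7, 327 and 512 CPM, and their part in the Gdf15 difference was not tested. Macrophage-like cells held 7.96, 6.22 and 1.85 Gdf15 UMIs for each Krt8 UMI, where tumor epithelial-like cells held 0.128, 0.106 and 0.0783. In macrophage-like cells without any tumor epithelial marker UMI, the change in Gdf15 for IL10/2-Trikine against PBS was -1.67, and in cells of 3000 to 8000 UMIs it was -1.56. Immediate-early genes, which dissociation of tissue can raise, summed to 9843 ± 568, 10150 ± 599 and 10200 ± 672 CPM (SD, n = 5 each), although single genes of the group passed the test as given below, and their part in the Gdf15 difference was not tested.

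Other genes of the response were tested in macrophage-like cells with edgeR's quasi-likelihood test and Benjamini-Hochberg adjustment over all 12105 genes, at an adjusted p of 0.05. Depth per cell and cluster shares differed between the groups in this class, as given above. The part of either in the list results for this class was not tested. Of all genes tested, 8.8% rose and 8.48% fell with IL10/2-Trikine against PBS, 13.2% rose and 12.5% fell with mono-IL10 against PBS, and 4.69% rose and 6.45% fell with IL10/2-Trikine against mono-IL10. Of 17 tested ATF4 partners and stress-response factors, 2 rose and 3 fell with IL10/2-Trikine (median log2 fold change -0.065, against 0.001 over all genes) and 7 rose and 2 fell with mono-IL10 (median 0.1, against -0.003). Ddit4, an inhibitor of mTORC1, rose from 47.8 ± 13.5 to 151 ± 24.1 CPM with mono-IL10 (log2 fold change 1.76, SE 0.15, adjusted p = 1.09e-07). Ddit4 also rose past the threshold with IL10/2-Trikine against PBS, and it fell with IL10/2-Trikine against mono-IL10. Nupr1, a stress-induced chromatin protein, rose with both treatments, by 0.67 (adjusted p = 0.000994) and 0.93 (adjusted p = 8.91e-06) on the log2 scale, IL10/2-Trikine first. Nfe2l2, which encodes NRF2, decreased by 0.59 on the log2 scale with IL10/2-Trikine (adjusted p = 4.49e-05), and Bbc3, which encodes PUMA, by 0.68 (adjusted p = 0.0293). Nfe2l2 also fell past the threshold with mono-IL10. Of 8 eIF2α kinase and phosphatase genes, none passed with IL10/2-Trikine (median -0.04), and with mono-IL10 1 rose and 3 fell, Eif2ak2, Eif2ak4 and Eif2s1 by 0.28 to 0.30.

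Amino acid supply genes also moved in macrophage-like cells. Gpt2, an alanine aminotransferase, rose from 13.7 ± 1.54 CPM with PBS to 36.9 ± 13.5 CPM with IL10/2-Trikine (log2 fold change 1.34, SE 0.161, adjusted p = 1.33e-05) and 34.0 ± 4.35 CPM with mono-IL10 (1.41, SE 0.143, adjusted p = 7.78e-07). Mthfd2, of mitochondrial folate metabolism, dropped by 0.56 and 0.77, with adjusted p = 0.0126 and 0.000202. In the list of 9 tested synthesis genes, 1 rose and 2 fell with IL10/2-Trikine and 2 rose and 1 fell with mono-IL10. Of 7 tested amino acid transporters, 4 fell with IL10/2-Trikine and 3 with mono-IL10, and none rose. Slc7a11, the cystine importer, decreased by 0.68 (adjusted p = 3.7e-05) and 0.34 (adjusted p = 0.00654), IL10/2-Trikine first. Slc7a11 also belongs to the 8 tested NRF2 targets, of which 1 rose and 5 fell with IL10/2-Trikine (median -0.454) and 1 rose and 6 fell with mono-IL10 (median -0.363). Txnrd1, thioredoxin reductase, went from 315 ± 30.3 to 179 ± 17.6 CPM with IL10/2-Trikine (log2 fold change -0.81, SE 0.0809, adjusted p = 1.8e-06). With mono-IL10 its log2 fold change was -0.403 (edgeR adjusted p = 0.000673). Gclc, of glutathione synthesis, went from 51.5 ± 4.78 to 27.6 ± 3.1 CPM with mono-IL10 (log2 fold change -0.81, SE 0.0993, adjusted p = 7.6e-06). Gclc also fell past the threshold with IL10/2-Trikine.

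In macrophage-like cells, genes of the other arms of the unfolded protein response passed in both directions. Of 15 endoplasmic reticulum chaperones and regulators, 3 rose and 2 fell with IL10/2-Trikine and 2 rose and 2 fell with mono-IL10, with Xbp1 up by 0.27 and 0.39 and Dnajb9 by 0.28 and 0.26 on the log2 scale, and Pdia4 up by 0.48 with IL10/2-Trikine (adjusted p = 0.00286). Of 13 aminoacyl-tRNA synthetases, none passed with IL10/2-Trikine and 1, Vars, fell with mono-IL10 (log2 fold change -0.29, adjusted p = 0.0199). Of 13 tested p53 targets, 2 rose and 2 fell with IL10/2-Trikine, with Zmat3 at 0.59 (adjusted p = 0.0196), Mdm2 at -0.43 (adjusted p = 0.00207) and Fas at 0.42 (adjusted p = 0.0118) on the log2 scale. With mono-IL10 2 rose, Fas at 0.28 (adjusted p = 0.0399) and Cdkn1a, from 1260 ± 93.7 to 1510 ± 127 CPM (log2 fold change 0.33, adjusted p = 0.00463). Of 16 immediate-early and dissociation genes, 2 fell with IL10/2-Trikine and 4 rose with mono-IL10 against PBS, and with IL10/2-Trikine against mono-IL10 7 fell, Jun, Jund, Ier2, Ier3, Zfp36, Hspa1a and Hspa1b, and 1, Fos, rose. The receptor of GDF15, Gfral, and its partner Ret did not pass the filter on low counts in any of the 3 classes.

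In dendritic-like cells, Gdf15 was low and uneven. It was at 20.2, 84.9, 12.3, 30.3 and 11.6 CPM with PBS, at 5.74, 17.3, 16.5, 1.86 and 1.84 CPM with mono-IL10, and at 29.8, 0, 0, 29.0 and 27.9 CPM with IL10/2-Trikine. These levels rest on 213, 36 and 18 UMIs in the 3 groups, the groups overlap, and PBS mouse 2 stands apart. The log2 fold change for mono-IL10 against PBS was -1.90 (SE 0.569, adjusted p = 0.0721, edgeR quasi-likelihood test), with a 95% interval from -3.08 to -0.72. It passed the threshold with no filter on low counts (adjusted p = 6.25e-09), with a coarser clustering (adjusted p = 0.033) and, at an adjusted p of 0.05, without PBS mouse 5, and it was -1.03 without PBS mouse 2 (adjusted p = 0.38). For IL10/2-Trikine the change was -0.99 against PBS (SE 0.737, adjusted p = 0.651) and 0.91 against mono-IL10 (SE 0.928, adjusted p = 0.756), with intervals from -2.51 to 0.54 and from -1.01 to 2.83. Dendritic-like cells held 0.0812, 0.017 and 0.0313 Gdf15 UMIs for each C1qa UMI, a macrophage transcript, where macrophage-like cells held 0.0732, 0.0326 and 0.0226. For each Krt8 UMI, dendritic-like cells held 0.64, 0.135 and 0.155 Gdf15 UMIs, where tumor epithelial-like cells held 0.128, 0.106 and 0.0783. The summed tumor epithelial markers averaged 240.3, 230.2 and 446.9 CPM in dendritic-like cells (PBS, mono-IL10, IL10/2-Trikine). The part of macrophage or tumor RNA in the dendritic-like level and its changes was not tested.

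Atf3 was lower in the dendritic-like cells of mono-IL10 mice. It was at 599, 550.1, 564, 498 and 504.5 CPM with PBS, at 341, 209, 372.5, 223.5 and 229.6 CPM with mono-IL10 and at 530.0, 419, 253, 435.5 and 260.6 CPM with IL10/2-Trikine. Every mono-IL10 mouse lay below every PBS mouse, which holds for 3.13% of the 6987 genes tested, and the IL10/2-Trikine mice overlapped both groups. The log2 fold change for mono-IL10 against PBS was -0.91 (SE 0.166, adjusted p = 0.0034), for IL10/2-Trikine against PBS -0.50 (SE 0.18, adjusted p = 0.227) and for IL10/2-Trikine against mono-IL10 0.41 (adjusted p = 0.364). The mono-IL10 call held in 25 of 26 alternatives, and in cells of 3000 to 8000 UMIs where only 2 of the 5 mono-IL10 mice held the 20 cells asked for, the change was -0.33 with adjusted p = 0.723. Immediate-early genes summed to 5708 ± 234 CPM with PBS and 5226 ± 479 CPM with mono-IL10 (SD, n = 5 each), and their part in the change was not tested. The summed macrophage markers in these cells lay at 1589 to 3627 CPM with PBS and 1784 to 4314 CPM with mono-IL10. Other marker sums did not overlap between these groups: neutrophil markers lay at 469 to 1080 CPM with PBS and at 139.5 to 423 CPM with mono-IL10, and conventional dendritic markers at 429 to 588 and at 322 to 405 CPM. The Plet1/Clec9a/Xcr1 cluster, where Atf3 was at 665 CPM with PBS and 455 CPM with mono-IL10, made up 25.4% and 15.8% of the class, and Atf3 was also lower with mono-IL10 in the Ccl17/Plet1/Ccr7 cluster (519 and 236 CPM) and the Ccl22/Ccr7 cluster (351 and 268 CPM). The part of these in the change was not tested.

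Atf4 in dendritic-like cells ranged from 168 to 205 CPM with PBS, from 171 to 230.4 CPM with mono-IL10 and from 158 to 273 CPM with IL10/2-Trikine, and the groups overlapped. Its log2 fold changes were 0.18 for mono-IL10 and -0.03 for IL10/2-Trikine against PBS, and -0.21 for IL10/2-Trikine against mono-IL10 (adjusted p = 0.553, 0.973 and 0.604, edgeR). Ddit3 held 70, 57 and 9 UMIs in the 3 groups, Trib3 1, 1 and 0, Asns 12, 0 and 3, and Chac1 4, 7 and 1, and these 4 genes did not pass the filter. Of the 7 genes, then, 1 of 3 tested fell with mono-IL10 against PBS, and none passed for IL10/2-Trikine against PBS or against mono-IL10. Among all genes tested in this class, 2.05% rose and 1.09% fell with mono-IL10 against PBS, 0.343% rose and 0.172% fell with IL10/2-Trikine against PBS, and 0.1% rose and 0.401% fell with IL10/2-Trikine against mono-IL10. On simulated counts of this class for IL10/2-Trikine against PBS, with 5 mice per group, the test recovered 60.2% of changes of 1 and 9.47% of changes of 0.5 on the log2 scale. Every simulated gene had the same spread between mice, so these shares do not hold for a gene as uneven as Gdf15 (SE 0.737 in that comparison). Of the other listed genes, Ddit4 rose with mono-IL10 from 32.1 ± 2.03 to 79.6 ± 23 CPM (log2 fold change 1.40, SE 0.214, adjusted p = 0.000704). Hsp90b1, a chaperone of the endoplasmic reticulum, decreased by 0.52 on the log2 scale with IL10/2-Trikine (SE 0.114, adjusted p = 0.0394). No other listed gene passed in this class against PBS.

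Tumor epithelial-like cells gave the deepest counts, and there 6 of the 7 genes fell with IL10/2-Trikine. Gdf15 was at 309.5, 248, 270.5, 299 and 263 CPM with PBS, at 269.8, 274, 258, 256 and 189 CPM with mono-IL10, and at 197.5, 140.2, 121, 155 and 132 CPM with IL10/2-Trikine. All IL10/2-Trikine mice lay below all PBS mice, mono-IL10 mouse 5 fell below IL10/2-Trikine mouse 1, and the mono-IL10 and PBS mice overlapped. The log2 fold change was -0.88 for IL10/2-Trikine against PBS (SE 0.12, adjusted p = 0.00012, edgeR quasi-likelihood test with Benjamini-Hochberg adjustment) and -0.84 against mono-IL10 (adjusted p = 8.46e-05). For mono-IL10 against PBS it was -0.04, with a 95% interval from -0.29 to 0.21. These comparisons share their groups. The IL10/2-Trikine call against PBS held in all 26 alternatives, at -0.98 to -0.69. A common range of 8000 to 20000 UMIs held 1960, 827 and 6932 cells (PBS, mono-IL10, IL10/2-Trikine), whose medians of 14577, 15327 and 12064 UMIs lay closer than in the whole class but were not equal. There, the change against PBS was -0.69 (adjusted p = 0.0034), and that against mono-IL10 was -0.44 and missed the threshold (adjusted p = 0.052).

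The transcription factors fell as well. Atf4 was at 212.9, 212.6, 196, 227 and 213 CPM with PBS and at 163.5, 183, 195, 175 and 189 CPM with IL10/2-Trikine, with no overlap (log2 fold change -0.20, SE 0.0535, adjusted p = 0.013). Without PBS mouse 4 that change was -0.17 with adjusted p = 0.0506. Ddit3 was at 44.1, 38.9, 43.2, 41.0 and 50.04 CPM with PBS and at 36.8, 31.9, 32.4, 32.2 and 34.4 CPM with IL10/2-Trikine, also with no overlap (-0.35, SE 0.0567, adjusted p = 0.00048), and in the common UMI range its change was -0.33 (adjusted p = 0.0628). Atf3 was at 2326, 1938, 1621, 2091 and 2017 CPM with PBS and at 1634, 1588, 1535, 1697 and 1660.0 CPM with IL10/2-Trikine. These groups overlapped, as PBS mouse 3 lay within the IL10/2-Trikine mice. Its change was -0.27 (SE 0.0924, adjusted p = 0.045) and passed in 11 of 26 alternatives, in the common UMI range it was -0.07 (adjusted p = 0.596), and it missed the threshold without any of PBS mice 1, 2, 4 or 5, mono-IL10 mouse 2 or any IL10/2-Trikine mouse, with adjusted p from 0.0504 to 0.118.

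Of the remaining genes, Asns was at 27.2, 23.2, 20.6, 24.1 and 23.7 CPM with PBS and at 18.5, 20.4, 19.1, 21.6 and 16.8 CPM with IL10/2-Trikine, with overlap of PBS mouse 3 (log2 fold change -0.27, SE 0.0789, edgeR adjusted p = 0.0223). In the common UMI range the Asns change turned to 0.10 (adjusted p = 0.571), and it missed the threshold without PBS mouse 1, 4 or 5 or IL10/2-Trikine mouse 1 or 5, at adjusted p from 0.0574 to 0.0617. Chac1 was at 2.11, 1.92, 1.94, 2.66 and 2.21 CPM with PBS and at 1.70, 1.47, 1.51, 1.70 and 1.27 CPM with IL10/2-Trikine, with no overlap (-0.47, SE 0.141, adjusted p = 0.0252). This rests on 383 and 190 UMIs, and the call was lost without PBS mouse 4 or 5 or IL10/2-Trikine mouse 2 or 5, at adjusted p from 0.0513 to 0.0786. Trib3 was at 5.16, 4.34, 4.43, 4.40 and 4.28 CPM with PBS and at 3.12, 3.64, 4.48, 4.03 and 3.004 CPM with IL10/2-Trikine, overlapped, and did not pass (-0.28, SE 0.11, adjusted p = 0.086). Without IL10/2-Trikine mouse 3 it was -0.35, with adjusted p = 0.0367.

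Thus 6 of 7 genes fell with IL10/2-Trikine against PBS, where 12.0% of all 15343 genes tested fell and 9.06% rose, and in 4 of them every IL10/2-Trikine mouse lay below every PBS mouse, as in 10.8% of all genes. The genes were listed for their pathway and for Gdf15, so this count is not one of 7 independent genes. Leaving out PBS mouse 4 left 2 calls, Gdf15 and Ddit3, leaving out PBS mouse 5 or IL10/2-Trikine mouse 5 left 3, and in the common UMI range 2, Gdf15 and Atf4, remained. Chac1 had no value in that range. In tumor epithelial-like cells with no UMI of Ptprc or a macrophage marker, 3 remained, Gdf15, Atf4 and Ddit3. Against mono-IL10, 6 of 7 genes fell with IL10/2-Trikine, where 18.9% of all genes fell and 17.0% rose, with Ddit3 at -0.46 (adjusted p = 2.4e-05), Atf4 at -0.34 (adjusted p = 0.00019), Chac1 at -0.70 (adjusted p = 0.0012), Atf3 at -0.25 (adjusted p = 0.0466) and Asns at -0.21 (adjusted p = 0.0486) beside Gdf15. Atf3 and Asns passed the threshold against mono-IL10 in 9 and 7 of 26 alternatives, and the 7 for Asns include the common UMI range, where it rose. Trib3 was at -0.0037, a direction that turned with other scalings. Atf4, Ddit3 and Chac1 had no overlap in that comparison, as in 6.75% of all genes. Within the common UMI range, 13.3% of all genes rose and 14.1% fell against mono-IL10. Of the 7 genes, of which Chac1 had no value there, 2 passed, in opposite directions: Atf4 fell by 0.26 (edgeR adjusted p = 0.0077) and Asns rose by 0.51 (edgeR adjusted p = 0.0155).

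With mono-IL10 against PBS, none of the 7 genes passed in tumor epithelial-like cells by edgeR (adjusted p from 0.11 to 0.90) or DESeq2, where 6.13% of all genes rose and 4.32% fell, and 2, Atf4 and Trib3, had an unadjusted p under 0.05. Trib3 was at 3.43, 3.93, 2.92, 3.31 and 3.69 CPM in the mono-IL10 mice, all below the PBS mice, as in 14.2% of all genes, with a change of -0.27 and a 95% interval from -0.50 to -0.045. Atf4 changed by 0.14 (interval 0.02 to 0.25), Ddit3 by 0.11 (-0.005 to 0.23), Atf3 by -0.03 (-0.22 to 0.17), Asns by -0.06 (-0.22 to 0.10) and Chac1 by 0.23 (-0.05 to 0.51). Without PBS mouse 5, Ddit3 passed, at 0.18 with adjusted p = 0.0318. Fold changes were scaled with TMM, and without it the median of all genes in this comparison shifted to -0.123. Without TMM it shifted also for IL10/2-Trikine against mono-IL10, to 0.101 in tumor epithelial-like, 0.122 in dendritic-like and 0.1001 in macrophage-like cells. The CPM values carry this shift and the fold changes do not.

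**Figure D3:**
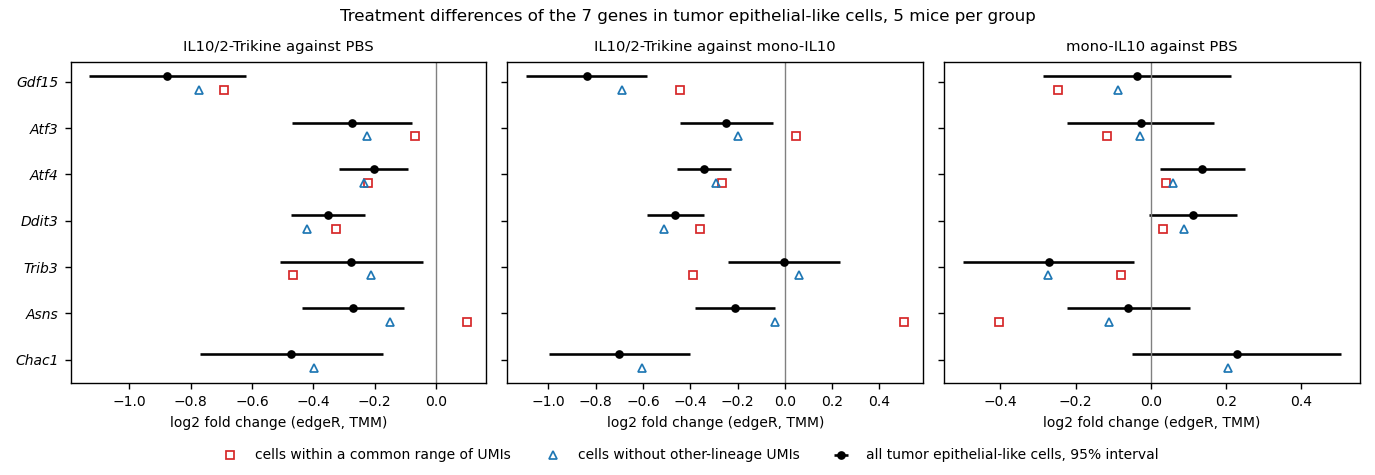
Log2 fold change of the 7 genes in tumor epithelial-like cells for each comparison, with 95% intervals; squares give the change in cells of 8000 to 20000 UMIs and triangles that in cells with no UMI of Ptprc or a macrophage marker (without other-lineage UMIs). Gdf15 lies at -0.88 for IL10/2-Trikine against PBS and at -0.69 in that range of UMIs, Asns moves from -0.27 to 0.10, and Chac1 has no value there.

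Among the 11 clusters of tumor epithelial-like cells, Gdf15 over the cells of the 5 mice together was lower than with PBS in 9 with IL10/2-Trikine and also in 9 with mono-IL10, and it was lower with IL10/2-Trikine than with mono-IL10 in 10. By the mean over mice with at least 20 cells of the cluster these counts were 10, 9 and 10. It was at 447 and 256 CPM in the Ube2c/Cdk1 cluster and at 404 and 198 CPM in the Lbp/Enpp2 cluster, PBS first. The Cenpf/Ccna2 cluster was not lower with IL10/2-Trikine by either summary, at 50.5 and 58.4 CPM over all cells and 52.1 and 53.7 CPM by the mean over mice. The Hnf1aos1/Pkhd1 cluster was at 39.0 and 41.5 CPM over all cells and at 43.0 and 35.4 CPM by the mean over 5 and 4 mice. With the same weights in every mouse for the 10 clusters with at least 10 cells in each, the class averaged 269, 237 and 150.1 CPM. These clusters held at least 92.2% of the cells of a mouse. Beside these values, the summed tumor epithelial markers lay at 4476 to 5777, 4924 to 5663 and 3958 to 4313 CPM in the 3 groups, and macrophage markers averaged 292 ± 82.8, 161 ± 45.8 and 453 ± 369.7 CPM (SD, n = 5 each), the last with 1109 CPM in IL10/2-Trikine mouse 1. Heat shock genes summed to 2159 ± 349, 1987 ± 285 and 1747 ± 139 CPM. The part of these, and of the depth per cell, in the changes was not tested beyond the settings given.

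With IL10/2-Trikine against PBS, the genes of the pathway lists that passed the test in tumor epithelial-like cells fell. The median log2 fold change of all genes was -0.006. Of 8 eIF2α kinase and phosphatase genes, 4 fell (median -0.169): Eif2s1, the α subunit of eIF2, by 0.33 (adjusted p = 0.000491), Eif2ak4, the amino acid sensor GCN2, by 0.32 (adjusted p = 0.00558), Eif2ak3, the kinase PERK, by 0.27 (adjusted p = 0.00188), and Dnajc3. Of 20 ATF4 partners and stress-response factors, 10 fell (median -0.258), with Ddit4 from 70.3 ± 10.8 to 48.6 ± 5.51 CPM (log2 fold change -0.51, adjusted p = 0.00271), Nupr1 from 1050.0 ± 116 to 766 ± 95.3 CPM (-0.43, adjusted p = 0.00308) and Bbc3 at -0.36 (adjusted p = 0.00905). Of 13 amino acid synthesis genes, 7 fell (median -0.236), among them Psph, the last step of serine synthesis, at -0.37 (adjusted p = 0.000748), Mthfd2 at -0.385 (adjusted p = 0.00347) and Aldh1l2 at -0.55 (adjusted p = 0.0223). Of 10 amino acid transporters, 4 fell (median -0.15), including both chains of the leucine exchanger, Slc3a2 at -0.21 (adjusted p = 0.000936) and Slc7a5 at -0.19 (adjusted p = 0.0269). None of these 4 lists held a gene that rose against PBS. Against mono-IL10, 4 kinase and phosphatase genes fell and none rose (median -0.182), and 11 ATF4 partners and stress-response factors fell and 1, Batf, rose (-0.273). In that comparison 6 synthesis genes fell and 1, Gpt2, rose (-0.18), and 2 transporters fell and 2, Slc7a3 and Slc38a1, rose (0.018). The median of all genes was 0.012.

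Of 13 aminoacyl-tRNA synthetases, 7 fell and none rose (median -0.153), with Eprs from 167 ± 1.25 to 130.0 ± 3.12 CPM (log2 fold change -0.34, SE 0.0299, adjusted p = 1.98e-06), Cars at -0.41 (adjusted p = 0.000405) and Tars at -0.25 (adjusted p = 0.00021). Of 15 endoplasmic reticulum chaperones and regulators, 8 fell and none rose (median -0.25), with Sdf2l1 at -0.50 (adjusted p = 0.000852), Pdia6 at -0.36 (adjusted p = 0.000748) and Hsp90b1 at -0.34 (adjusted p = 0.000296). Lists of other stress responses held genes that passed in both directions. Of 13 tested p53 targets, 2 fell and 1 rose, with Btg2 at -0.47 (adjusted p = 0.00683) and Zmat3 at 0.39 (adjusted p = 0.00195). Of 9 NRF2 targets, 3 fell and 1 rose, with Txnrd1 at -0.375 (adjusted p = 4.97e-05), Gclm at -0.32 (adjusted p = 0.000109) and Hmox1 at -0.58 (adjusted p = 0.0141). Of 16 immediate-early and dissociation genes, 3 fell and 2 rose, with Dnajb1 at -0.77 (adjusted p = 0.0124), Hsph1 at -0.71 (adjusted p = 0.0124) and Nr4a1 at 0.38 (adjusted p = 0.0197). Against mono-IL10, 7 synthetases fell and none rose, 8 chaperones fell and 2, Xbp1 and Sel1l, rose, 3 p53 targets fell and 2 rose, 4 NRF2 targets fell and 2 rose, and 5 immediate-early genes fell and 3 rose. No list was tested as a set, and 12.0% of all genes fell against PBS.

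Several of these counts differed within the common UMI range. In cells of 8000 to 20000 UMIs, where 11.7% of all genes fell and 12.7% rose, 7 of 18 ATF4 partners and stress-response factors still fell and none rose. There, 2 kinase and phosphatase genes fell and 1 rose, no synthesis gene fell and 1 rose (median 0.042), 2 of 9 transporters fell, 1 synthetase fell and 2 rose, and 1 chaperone fell. In cells with no UMI of Ptprc or a macrophage marker, 7.0% of all genes fell and 5.88% rose. Among those cells 4 kinase and phosphatase genes, 10 ATF4 partners and stress-response factors, 2 synthesis genes, 2 transporters, 2 synthetases and 6 chaperones fell, and none rose. With mono-IL10 against PBS, 2 ATF4 partners and stress-response factors rose, Nupr1 at 0.455 (edgeR adjusted p = 0.00583) and Cebpd at 0.24 (edgeR adjusted p = 0.0459), and 1 fell, Nfe2l2 at -0.19 (edgeR adjusted p = 0.014). The 3 transporters that fell were Slc38a1 at -0.76 (adjusted p = 0.0368), Slc7a11 at -0.655 (adjusted p = 0.011) and Slc7a5 at -0.21 (adjusted p = 0.0272). No kinase, synthesis, synthetase or chaperone gene passed in that comparison.

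Cells with Gdf15 were compared with cells without it inside each mouse, so that treatment and library did not enter, with each cell thinned to 3000 UMIs. In 13 mice with enough macrophage-like cells of both kinds, Atf3 averaged 1300.0 CPM in cells with a Gdf15 UMI and 574.5 CPM in cells without, a mean log2 ratio of 1.18 ± 0.214 (SD), higher in 13 of 13 mice (exact sign-flip permutation test, adjusted p = 0.00098 over 12 tests). Ddit3 was at 33.0 and 22.2 CPM (log2 ratio 0.51 ± 0.431, 11 of 13 mice, exact permutation adjusted p = 0.0069). In 15 mice with tumor epithelial-like cells, Atf3 had a log2 ratio of 0.51 ± 0.157 (15 of 15 mice, exact permutation adjusted p = 0.00073), Ddit3 of 0.43 ± 0.256 (14 of 15 mice, the same adjusted p) and Chac1 of 0.72 ± 0.749 (12 of 15 mice, exact permutation adjusted p = 0.0069). Atf4 differed by 0.15 and 0.07 in the 2 classes (exact permutation adjusted p = 0.133 and 0.0964), and Trib3 and Asns did not pass in either class (0.0964 to 0.875). In macrophage-like cells the Chac1 ratio was 0.03, with Chac1 higher in 3 of 13 mice (exact permutation adjusted p = 0.898). In tumor epithelial-like cells with no UMI of Ptprc or a macrophage marker, the Chac1 ratio turned to -0.078. Dendritic-like cells with Gdf15 were too few in each mouse.

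**Figure D4:**
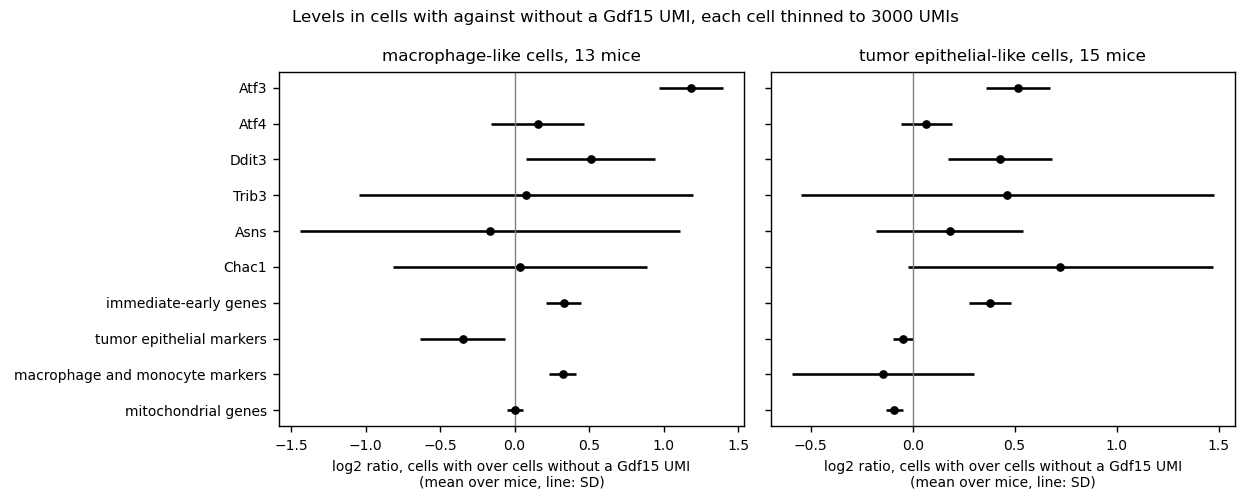
Log2 ratio of the level in cells with a Gdf15 UMI over that in cells without (horizontal axis) for 6 of the genes and 4 marker sums, in macrophage-like and tumor epithelial-like cells thinned to 3000 UMIs; points are means over mice and lines SD. Atf3 lies at 1.18 and 0.51 and Atf4 at 0.15 and 0.07, macrophage-like cells first.

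Other transcripts moved with Gdf15 in the same cells. Immediate-early genes were higher by 0.33 in macrophage-like and 0.38 in tumor epithelial-like cells with Gdf15, in every mouse, on the log2 scale. Macrophage markers were higher by 0.32 in macrophage-like cells with Gdf15, and tumor epithelial markers had a log2 ratio of -0.35 there. Mitochondrial genes differed by 0.0018 and -0.09. Clusters of macrophage-like and of tumor epithelial-like cells differ in both Gdf15 and Atf3. With PBS, Gdf15 and Atf3 were at 447 and 2460 CPM in the Ube2c/Cdk1 tumor cluster and at 39.0 and 178 CPM in the Hnf1aos1/Pkhd1 cluster. The part of this in the ratios was not tested in either class.

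The genes most like Gdf15 over the 60 clusters of all cells, by Pearson's r of log2(CPM + 1) among 6769 genes with a mean of at least 20 CPM, were Atf3 and Pdgfc (both 0.844), Chka (0.808), Lamtor3 (0.8) and Zfp704 (0.797). Ddit3 had an r of 0.351 and Atf4 of -0.0612. Over the 15 mice in macrophage-like cells, after the mean of each group was subtracted, the leading genes of 5884 were Il10rb (0.874), a chain of the IL-10 receptor, Ing1 (0.849), Jun (0.829), Fnip1 (0.808) and Hmgn1 (0.808), and Atf3 was at 0.64. Clusters share libraries and differ in depth, and mice share a library, so these values are descriptions. The leading genes over mice are the highest of 5884 over only 15 mice, where high values of r can arise by chance, and no r was tested.

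The effect of treatment in tumor epithelial-like cells was compared with that in dendritic-like cells by an exact two-sided permutation test over mice of log2(CPM + 1), for 7 genes and 3 comparisons. None of 21 differences passed after adjustment, which says little, since 1 difference at the smallest possible p could not pass and Trib3, Asns and Chac1 held few dendritic-like UMIs. The smallest p was 0.00794, the smallest that 5 against 5 mice allow, for Atf3 with mono-IL10 against PBS, where the effects differed by 0.87 (exact permutation adjusted p = 0.167). For Gdf15 in the same comparison the difference was 1.65 (adjusted p = 0.375, exact permutation test).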

How the data were processed

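The members and gene lists were chosen with earlier results of these data known. The authors aligned reads with Cell Ranger to GRCm39 and deposited raw matrices of UMI counts, which are not normalized, and a table of annotated T and NK cells. The submitters' processing notes name Seurat 5.1.0 and DESeq2 1.46.0. The filter on barcodes asked for 1000 detected genes or more and 10% mitochondrial UMIs or less (passed by 34518 PBS, 24060 mono-IL10 and 46104 IL10/2-Trikine). Hashtags were called with HTODemux (Seurat 5.3.0, quantile 0.99), barcodes with more than 1 hashtag were removed as doublets, and 96.6% of 2082 annotated cells got the deposited call. These annotated cells are T and NK cells, so the calls in macrophage-like, dendritic-like and tumor epithelial-like cells were not checked this way. 7858 annotated cells of no sample here were not used. Cells were grouped by 40 principal components into 60 k-means clusters (scikit-learn 1.9.0, numpy 2.4.6, pandas 2.3.3, scipy 1.17.1, Python 3.11.15) and named from markers, with naming rules adjusted after the clusters were seen, so the classes are rebuilt ones. Ddit3 has 2 features, 1 of them at 0 throughout, and the other was used.

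Counts were summed per mouse (at least 20 cells) and tested in all 3 groups with edgeR 4.0.16 (R 4.3.3, limma 3.58.1): TMM, filterByExpr, quasi-likelihood F test, Benjamini-Hochberg adjustment over all genes of a class, threshold 0.05. The test was run on simulated data, in which every gene of a class had the same spread between mice. On these, 82.7%, 60.2% and 95.9% of log2 changes of 1 for IL10/2-Trikine against PBS were recovered in macrophage-like, dendritic-like and tumor epithelial-like cells. The rule for named genes took, from each list and class, up to 3 with the largest change past the threshold for either treatment against PBS. Not all of these are given in the text, and further genes were named after their values were seen. Alternatives were RLE scaling, DESeq2 1.42.0, no filter, only the compared groups, thinned sums, cells with at least 2000 genes, 30 components with 40 clusters, cells without other-lineage UMIs (no tumor epithelial marker in macrophage-like and dendritic-like cells, no Ptprc or macrophage marker in tumor epithelial-like cells), at least 50 cells and each mouse left out. Cells of a common UMI range, unscaled library totals and equal cluster weights were added after seeing the data. Shares and intervals cover counting error or the spread between mice only. The hashtag number of a mouse does not pair mice across libraries.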

Additional observations from a re-analysis of the deposited data

Results flagged for a closer look

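Of 61 groups of 5 mice examined, 7 held a mouse whose gap to its nearest neighbour passed Dixon's 95% critical value of 0.71 of the group's range, and chance alone gives about 1 group in 20. In dendritic-like cells, Gdf15 in PBS mouse 2 was at 84.9 CPM from 135 UMIs, far from the other PBS mice at 11.6 to 30.3 CPM. Trib3 was at 1.37 CPM in PBS mouse 3 and at 1.5 CPM in mono-IL10 mouse 3, and Chac1 at 4.15 CPM in IL10/2-Trikine mouse 2, each from 1 UMI in dendritic-like cells where the other mice of the group were at 0. In tumor epithelial-like cells, Gdf15 was at 189 CPM in mono-IL10 mouse 5, Trib3 at 5.16 CPM in PBS mouse 1 and Asns at 24.8 CPM in mono-IL10 mouse 4, each apart from the other 4 mice of its group.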

How the results depend on the processing

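The Gdf15 change for IL10/2-Trikine against PBS kept its direction in macrophage-like and tumor epithelial-like cells under every alternative run. Each treatment is 1 library, so depth, library and treatment cannot be told apart; dendritic-like cells held few UMIs of most of the 7 genes, and low counts limit Trib3, Asns and Chac1 outside tumor epithelial-like cells. The cause of the moves below was not tested. No paired analysis was possible across treatments because the hashtag numbers, 1 to 5 in each library, do not tie a mouse of one group to a mouse of another.

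In macrophage-like cells, 2091, 3115 and 1349 genes were called (IL10/2-Trikine against PBS, mono-IL10 against PBS, IL10/2-Trikine against mono-IL10). Sums thinned to the lowest mouse gave 983, 1113 and 471, cells with at least 2000 genes 1109 in the first, and a common UMI range 2139 in the last. In dendritic-like cells, 36, 219 and 35 genes were called in the same order. Without a filter they were 319, 396 and 373, thinned 19, 24 and 23, without other-lineage UMIs 4, 17 and 10, and in a common UMI range 366, 20 and 321; with fewer than 20 cells in the other mice, only 3 mono-IL10 and 4 IL10/2-Trikine mice entered the former and 2 and 3 the latter. For the first and last, DESeq2 gave 111 and 109, the compared groups alone 61 and 7, 40 clusters 61 and 74, and at least 50 cells 15 and 15, and unscaled totals gave 55 for the first. Cells with at least 2000 genes left too few dendritic-like mice for a value with IL10/2-Trikine. In tumor epithelial-like cells, 3236, 1604 and 5503 genes were called. Without other-lineage UMIs they were 1681, 448 and 2765, and in a common UMI range 293 for mono-IL10 against PBS and 3313 for the last. The second was 849 with 40 clusters and 3716 with unscaled totals.

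Of the 7 genes, 0, 1 and 0 were called in dendritic-like cells, 1 in the first without a filter (Atf3), 2 in the second without a filter or with 40 clusters, and 0 there in a common UMI range. In tumor epithelial-like cells, 6, 0 and 6 were called, 3 in the first and last without other-lineage UMIs, 2 in both in a common UMI range, where Chac1 had no value, and 1 in the second with unscaled totals (Trib3). Between macrophage-like cells with and without Gdf15, 4 genes differed at 2000 UMIs, where 2 differed at 3000.

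Log2 values turned as follows. Ddit3 in macrophage-like cells with mono-IL10 against PBS was -0.071 thinned, -0.051 without other-lineage UMIs and -0.05 with unscaled totals. In a common UMI range, Atf3 for IL10/2-Trikine against mono-IL10 was -0.014 in macrophage-like and 0.048 in tumor epithelial-like cells, and Asns in the latter was 0.505, and 0.103 against PBS. Atf4 in dendritic-like cells with IL10/2-Trikine against PBS was 0.213 thinned, 0.028 with 40 clusters, 0.199 without other-lineage UMIs and 0.021 with unscaled totals, and against mono-IL10 0.066 thinned. Ddit3 in tumor epithelial-like cells with mono-IL10 was -0.004 with unscaled totals. Trib3 there for IL10/2-Trikine against mono-IL10 was 0.001 with RLE, 0.006 with DESeq2, 0.002 with the compared groups alone, 0.061 without other-lineage UMIs and 0.086 with unscaled totals. Between cells with and without Gdf15, Trib3 was -0.253 and Chac1 -0.361 in macrophage-like cells at 2000 UMIs, Chac1 there -0.273 without other-lineage UMIs, and in tumor epithelial-like cells Trib3 was then -0.361 and Chac1 -0.078.

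Leaving out 1 mouse at a time gave 1664 to 2145, 2495 to 3200 and 860 to 1422 genes in macrophage-like cells, 19 to 51, 114 to 242 and 15 to 72 in dendritic-like cells, and 2590 to 3240, 980 to 2196 and 4825 to 5443 in tumor epithelial-like cells. Of the 7 genes, it left 1 to 2 in dendritic-like cells with mono-IL10, and 2 to 6, 0 to 1 and 4 to 6 in tumor epithelial-like cells. It left 2 to 3 genes that differed between cells with and without Gdf15 in macrophage-like and 3 to 5 in tumor epithelial-like cells. Values that turned were Ddit3 in macrophage-like cells with mono-IL10 (-0.026 to 0.068), Atf4 in dendritic-like cells with IL10/2-Trikine against PBS (-0.202 to 0.046) and its tumor minus dendritic difference for IL10/2-Trikine against mono-IL10 (-0.216 to 0.007). In tumor epithelial-like cells with mono-IL10 they were Atf3 (-0.093 to 0.03) and Gdf15 (-0.073 to 0.053), and with IL10/2-Trikine against mono-IL10 Trib3 (-0.077 to 0.062). In macrophage-like cells with and without Gdf15 they were Chac1 (-0.123 to 0.131) and Trib3 (-0.062 to 0.191).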
